A study of Homo sapiens with 16 samples.

Results

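Messenger RNA of 10 genes was followed across the whole series: ISG15, UBA7, UBE2L6, HERC6 and USP18, which encode the ISG15 modifier and proteins that attach it, remove it or are related to those that do, and IFI6, IFI27, IFI35, IFI44 and IFI44L, small or little characterised genes named for their induction by interferon. They are 10 of the 20531 entries of the count table and were taken by symbol. They were chosen from earlier results of these data, in which IFI6 was among the genes furthest below control after SLIRP siRNA, so the differences between siRNAs are given below as a description, and calls in that contrast are counted only for scale. The responses to androgen did not enter that choice and were tested.

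The RNA came from LNCaP cells, an androgen-sensitive human prostate cancer line derived from a lymph node metastasis. The 4 groups of 4 libraries were cells with nonsense control siRNA and vehicle (NS-Veh), nonsense siRNA and 1 nM DHT, the androgen dihydrotestosterone (NS-1nM DHT), SLIRP siRNA and vehicle (SLIRP-Veh), and SLIRP siRNA and 1 nM DHT (SLIRP-1nM DHT). All cells had thus been transfected with siRNA, at 40 nM for 24 h, before 24 h of DHT or vehicle, and cells without transfection were not analysed here. The vehicle was ethanol, and the medium was free of serum during treatment. The control was a custom nonsense siRNA, whereas the SLIRP siRNA was a pool. Effects of SLIRP loss and of the siRNA molecules themselves thus cannot be told apart here. The study's methods describe biological replicates from more than one experiment without saying which replicate number belongs to which, so the p-values measure the spread between these libraries, part of which may be technical.

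ISG15 is a small ubiquitin-like protein that cells make after interferon exposure and join to other proteins. UBA7 activates it, UBE2L6 carries it and, in human cells, HERC5 is the main ligase that places it on targets, while USP18 takes it off again and also damps signalling at the interferon receptor. HERC6 is the neighbour and close relative of HERC5. Type I interferon works through a receptor with the kinases JAK1 and TYK2 and through the transcription factor complex ISGF3, which binds the interferon-stimulated response element (ISRE) in promoters. LNCaP cells are known for a poor response to added interferon, ascribed to a lack of JAK1.

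The promoters of these genes are shown because ISGF3 acts through the ISRE in promoters. The core of the ISRE was searched on both strands as GAAANNGAAA, or TTTCNNTTTC when read on the opposite strand. The windows ran from 250 bases before to 50 bases after the RefSeq start of each gene on GRCh38.p14. Of the 10 genes, 8 had a window, and 5 of these 8 (62.5%) held at least 1 match, beside 996 of 27305 promoters of any gene (3.65%). The stretches that hold the matches, with 10 bases on each side and the matches in capitals, read 5′ to 3′ along the gene as follows.

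ISG15: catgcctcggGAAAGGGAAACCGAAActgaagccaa

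IFI6: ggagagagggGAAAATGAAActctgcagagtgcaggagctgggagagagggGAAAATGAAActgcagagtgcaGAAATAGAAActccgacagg

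IFI27: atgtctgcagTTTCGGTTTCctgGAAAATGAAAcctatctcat

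IFI44: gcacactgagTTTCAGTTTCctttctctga

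IFI44L: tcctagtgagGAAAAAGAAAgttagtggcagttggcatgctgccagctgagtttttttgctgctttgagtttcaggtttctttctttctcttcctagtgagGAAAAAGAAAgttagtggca

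HERC5: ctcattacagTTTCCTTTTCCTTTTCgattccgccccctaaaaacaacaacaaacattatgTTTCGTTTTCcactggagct

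ISG15 held 2 matches that overlap each other, IFI6 3, IFI27 1 on each strand, IFI44 1 on the opposite strand and IFI44L 2. The HERC5 promoter, printed because HERC5 is the ligase of the pathway, held 3 on the opposite strand, of which 2 overlap. The windows of UBE2L6, HERC6 and IFI35 held no match to these letters. Only the first listed window of each gene was searched, so these genes may hold an ISRE elsewhere or in other letters. On GRCh37 (hg19), the build of the counts, exact matches placed the printed stretches at chr1:948754-948789 for ISG15, chr1:27998777-27998869 on the minus strand for IFI6, chr14:94576964-94577006 for IFI27, chr1:79115446-79115475 for IFI44 and chr1:79085959-79086079 for IFI44L. The gene bounds given below are from GENCODE, and for ISG15, IFI27 and IFI44L they begin upstream of the printed stretch, which thus lies inside them. A match is a stretch of letters and not a measured binding site.

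**Figure D1:**
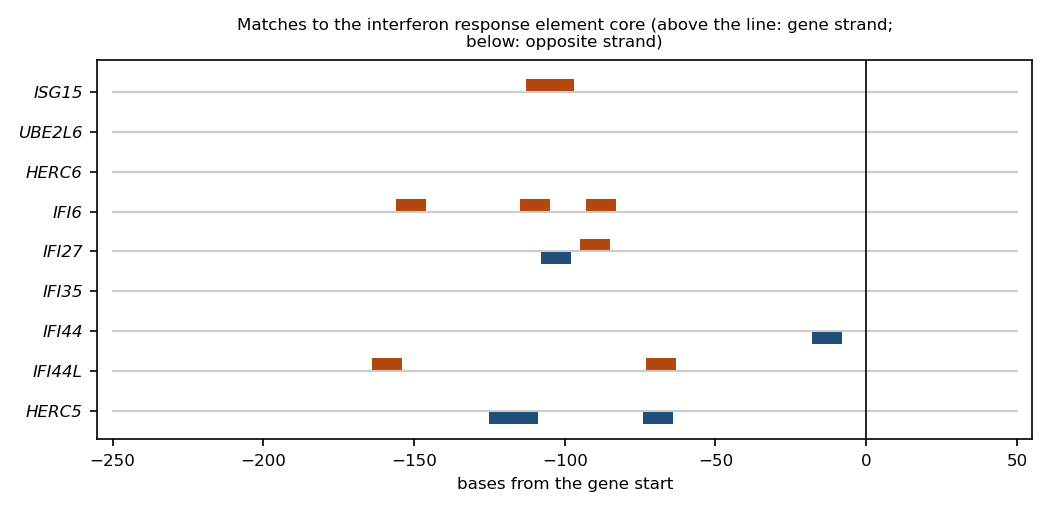
Position of each match to the ISRE core in the promoter windows, in bases from the RefSeq gene start (0), with 1 row for each of 9 genes that have a window. Blocks above the line are on the strand of the gene and blocks below on the opposite strand, and the rows of UBE2L6, HERC6 and IFI35 are empty.

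The siRNA lowered its own target. SLIRP, listed under its older symbol C14orf156, stood at 58.8 ± 2.71 CPM (counts per a common library size; SD, n = 4) in NS-Veh and 54.1 ± 6.93 in NS-1nM DHT. The level was far lower with SLIRP siRNA, at 4.09 ± 2.58 CPM in vehicle and 3.50 ± 3.06 CPM in DHT (SD, n = 4 each). Libraries held between 436353 and 1689708 counts, so that 1 count was worth between 0.586 and 2.32 CPM, and several of the 10 genes had few counts in the shallower libraries. Luminal prostate markers fitted the label: all 7 were expressed, with a summed level of 3346 to 3441 CPM in vehicle and 3460 to 3882 in DHT with nonsense siRNA, and 2331 to 2471 in vehicle and 2720 to 3031 in DHT with SLIRP siRNA. Of 3 basal markers 2 were at 0 in every library and the summed level was at most 1.52 CPM, and of 5 leukocyte markers 3 were at 0 and the sum was at most 3.94 CPM. Fibroblast and endothelial markers summed to between 14.2 and 31.8 CPM, with 2 of 5 at 0. The lower luminal sum moved with SLIRP siRNA, and its part in the values below was not tested. Most of the sum was FOLH1, at 2084 CPM in NS-Veh and 1303 CPM in SLIRP-Veh, whereas KLK3 was at 39.2 and 95.4 CPM in the same groups (these markers were named after their values were seen). For SLIRP against nonsense siRNA, 4 of the 7 markers were called lower and 1 higher in vehicle. In DHT 4 were called lower and 3 higher. Of all 10684 genes tested, 1063 were called lower and 1256 higher in vehicle, and 1237 lower and 1370 higher in DHT. In RNA from whole cultures, fewer expressing cells and less RNA per cell cannot be told apart.

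ISG15 lies on chromosome 1 (hg19 936518 to 949920, plus strand). In NS-Veh its level was 169, 141, 170.3 and 130.2 CPM in replicates 1 to 4, and in NS-1nM DHT 158, 149, 132 and 124 CPM. In SLIRP-Veh it was 35.7, 23.1, 31.9 and 24.3 CPM, and in SLIRP-1nM DHT 22.2, 25.5, 24.2 and 37.8 CPM. The highest library with SLIRP siRNA was thus far below the lowest with nonsense siRNA, and the levels with SLIRP siRNA were 18.8% of the NS mean in vehicle and 19.5% in DHT. Here and below, how many of all genes separate in this way was not counted. Over all 16 libraries the log2 fold change was -2.34 with a standard error (SE) of 0.115.

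The shares kept by UBA7, UBE2L6, HERC6 and USP18 ranged widely, and differences between these genes were not tested. UBA7, the activating enzyme (chromosome 3, 49842642 to 49851386, minus strand), was between 8.35 and 13.8 CPM in the NS libraries and between 1.54 and 4.25 CPM in those with SLIRP siRNA. The groups did not overlap, although the SLIRP siRNA libraries held only 1 to 6 counts each. The mean level of UBA7 was 11.3 ± 1.94 CPM in vehicle and 9.68 ± 1.85 in DHT with nonsense siRNA, and 2.58 ± 0.81 in vehicle and 3.37 ± 0.86 in DHT with SLIRP siRNA (SD, n = 4 each). That left 22.8% of the NS mean in vehicle and 34.8% in DHT. The call on UBA7 in DHT was lost in 8 of 21 alternative settings, 3 of which left out a single library. A microRNA gene, MIR5193, overlaps an exon of UBA7.

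UBE2L6, the carrier (chromosome 11, 57319129 to 57335757, minus strand), showed no such gap. Its level was 5.74 ± 3.12 CPM in vehicle and 4.39 ± 2.23 in DHT with nonsense siRNA, and 5.88 ± 1.22 in vehicle and 2.92 ± 1.22 in DHT with SLIRP siRNA. With 1 to 14 counts in a library it did not pass the filter on low counts of the edgeR fits. Without that filter the log2 fold change of UBE2L6 was -0.24 in vehicle and -0.56 in DHT. From the summed counts of each group the ratio of NS to SLIRP siRNA was 1.24 in vehicle (95% exact interval 0.685 to 2.26) and 1.48 in DHT (0.682 to 3.399), intervals that cover counting error only and include equality.

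HERC6 lies on chromosome 4 (89299891 to 89364249, plus strand), just before HERC5 (89378270 to 89427314). It was at 61.1, 62.5, 69.4 and 53.5 CPM in NS-Veh and at 39.2, 57.7, 40.4 and 50.6 CPM in NS-1nM DHT. With SLIRP siRNA it was at 14.1, 6.17, 13.3 and 6.93 CPM in vehicle and at 13.1, 17.0, 7.75 and 11.3 CPM in DHT. All 8 SLIRP siRNA libraries lay below all 8 NS libraries, at 16.4% of the NS mean in vehicle and 26.1% in DHT, and the log2 fold change over 16 libraries was -2.26 (SE 0.175).

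USP18, the protease and receptor brake (chromosome 22, 18632885 to 18660164, plus strand), kept most of its level. It was at 25.6, 20.8, 32.1 and 27.9 CPM in NS-Veh and at 36.1, 26.6, 20.6 and 26.8 CPM in NS-1nM DHT. After SLIRP siRNA USP18 was at 21.7, 23.1, 23.9 and 15.6 CPM in vehicle and at 23.5, 12.8, 18.4 and 18.5 CPM in DHT. The groups overlapped, with 79.2% of the NS mean left in vehicle and 66.5% in DHT and a log2 fold change over 16 libraries of -0.50 (SE 0.158). USP18 has a near-identical copy, USP41, that was not analysed here, so reads of the pair may have been counted together. The call on USP18 at a false discovery rate (FDR) of 0.01 over 16 libraries was lost in 23 of 31 alternative settings, 11 of which left out a single library.

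Since ISG15 and USP18 counts come from the same libraries, their ratio does not depend on the scaling. The count of ISG15 was 5.84 ± 1.03 times that of USP18 in NS-Veh and 5.25 ± 0.940 times in NS-1nM DHT. With SLIRP siRNA it was 1.38 ± 0.288 times in vehicle and 1.58 ± 0.537 times in DHT (SD, n = 4 each). The highest ratio with SLIRP siRNA was 2.04 and the lowest with nonsense siRNA was 4.37, so the ratios of these messenger RNA counts did not overlap between siRNAs. The ratio restates the shares kept by each gene and says nothing of the proteins.

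IFI6, an interferon-induced protein of mitochondria and the endoplasmic reticulum that limits cell death, had with ISG15 the highest level per length of the 10 genes. It lies on chromosome 1 (27992575 to 27998723, minus strand), and its exons overlap LINC02574 on the same strand and another long non-coding RNA on the opposite strand. Whether the counting used strand is not given in the sources used here, so part of its count could belong to these. Its level was 254, 188, 250.2 and 187 CPM in NS-Veh and 223, 226, 204 and 173 CPM in NS-1nM DHT. With SLIRP siRNA it was 23.4, 13.9, 10.6 and 8.67 CPM in vehicle and 17.0, 31.2, 9.69 and 12.9 CPM in DHT. The libraries with SLIRP siRNA kept 6.44% of the NS mean in vehicle and 8.57% in DHT, the smallest shares among the 10 genes after IFI27, and the log2 fold change over 16 libraries was -3.74 (SE 0.152). The count of IFI6 was 1.43 ± 0.0750 times that of ISG15 in NS-Veh and 1.47 ± 0.0716 times in NS-1nM DHT, a narrow spread, against 0.487 ± 0.165 times in SLIRP-Veh and 0.682 ± 0.406 times in SLIRP-1nM DHT. IFI6 had more counts than ISG15 in each of the 8 NS libraries and in 1 of the 8 SLIRP siRNA libraries.

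IFI27, a relative of IFI6 on chromosome 14 (94571182 to 94583032, plus strand), was at 13.8, 11.6, 11.1 and 9.58 CPM in NS-Veh, from 5 to 17 counts. In NS-1nM DHT it was at 6.19, 9.87, 9.45 and 4.34 CPM. In SLIRP-Veh there was 1 count in 4 libraries and in SLIRP-1nM DHT 0 counts in 4 libraries, which by the floor of 3 counts over the group allows a level of up to 0.801 CPM. The ratio of summed counts in vehicle was 47.0, with a 95% exact interval from 7.97 to 1900.3, and in DHT IFI27 was at least 9.30-fold lower against that floor, while the lower limit of the 95% exact interval was 7.18.

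IFI44 and IFI44L are neighbouring paralogs on chromosome 1 (79115481 to 79129763 and 79085587 to 79111830, both on the plus strand) that interferon and viral infection induce. IFI44 was at 49.2, 30.1, 41.3 and 45.5 CPM in NS-Veh and at 46.4, 39.5, 35.2 and 37.6 CPM in NS-1nM DHT. With SLIRP siRNA it was at 8.20, 9.25, 9.30 and 6.07 CPM in vehicle and at 9.15, 9.92, 5.81 and 8.04 CPM in DHT. The shares kept, 19.8% and 20.7%, were close to those of ISG15, and the log2 fold change over 16 libraries was -2.34 (SE 0.164). IFI44L was 4.45 ± 2.16 CPM in NS-Veh and 6.29 ± 1.31 CPM in NS-1nM DHT, with 2 counts in all with SLIRP siRNA and vehicle and 5 with SLIRP siRNA and DHT. Its ratio of summed counts, NS to SLIRP siRNA, was 10.9 in vehicle (95% exact interval 2.63 to 96.4) and 4.81 in DHT (1.85 to 15.8).

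IFI35, which pairs with the protein NMI (chromosome 17, 41158757 to 41166473, plus strand), was lower by less. It was at 17.7, 13.9, 17.0 and 15.97 CPM in NS-Veh and at 22.7, 14.4, 23.2 and 10.9 CPM in NS-1nM DHT. After SLIRP siRNA IFI35 was at 11.1, 0, 6.65 and 9.53 CPM in vehicle and at 10.5, 4.25, 4.85 and 8.84 CPM in DHT. The highest SLIRP siRNA library, at 11.1 CPM, was above the lowest NS library, at 10.9 CPM, although within each treatment the groups did not overlap. The log2 fold change over 16 libraries was -1.15 (SE 0.262). The call over 16 libraries was lost in 4 of 31 alternative settings, and that in DHT in 13 of 23, 5 of which left out a single library.

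**Figure D2:**
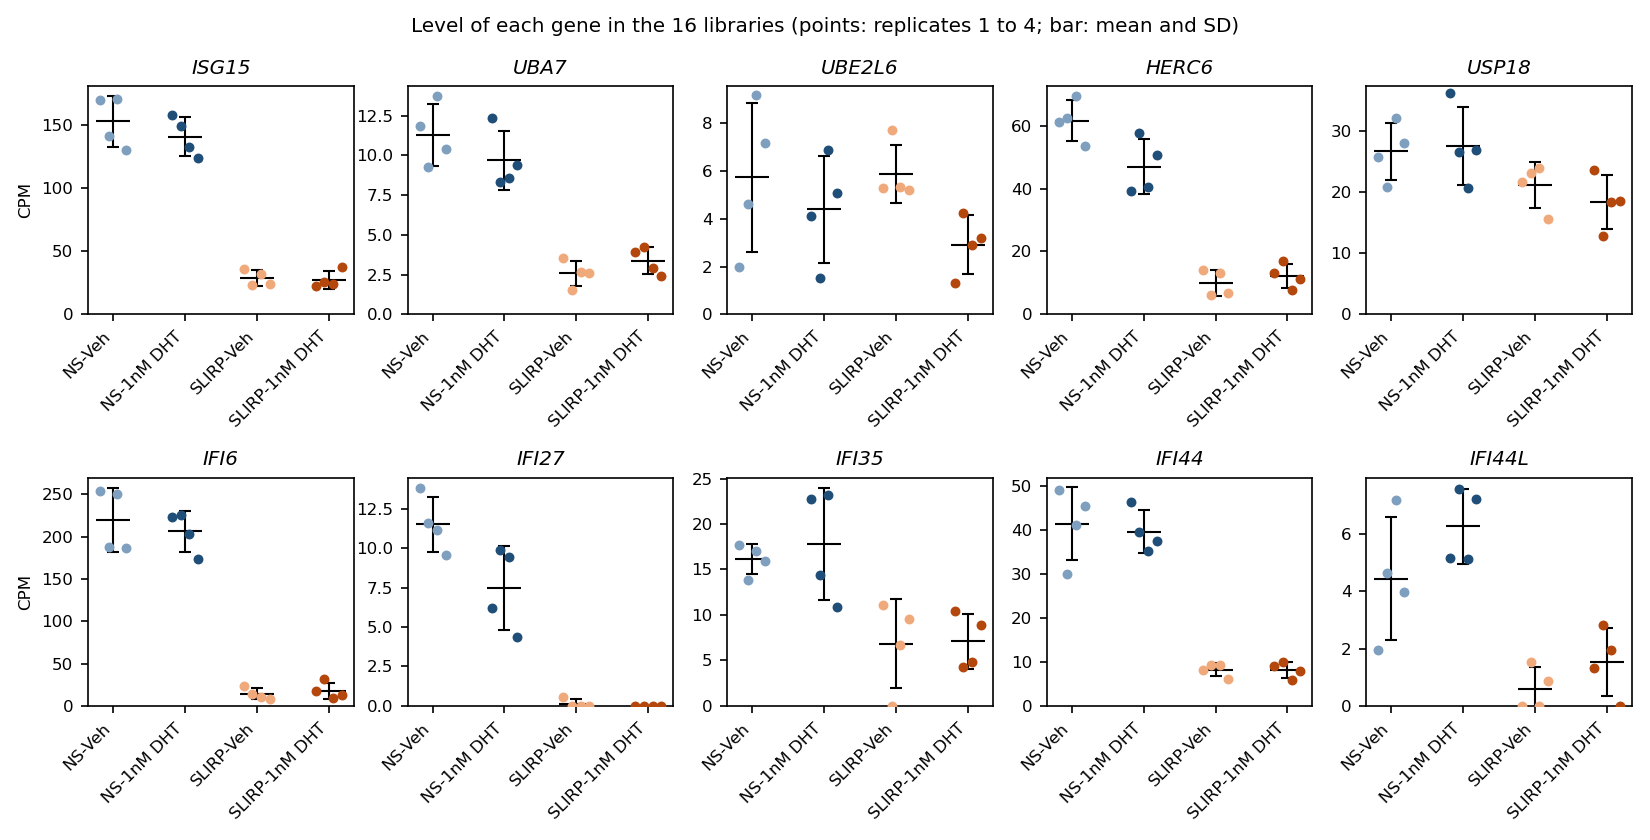
Level of each of the 10 genes in CPM (vertical axis, from 0, with its own scale in each panel) in the 4 groups, with 1 point for each library and a bar for the mean and SD (n = 4). ISG15, UBA7, HERC6, IFI6, IFI27 and IFI44 had all 8 SLIRP siRNA libraries below all 8 NS libraries, whereas UBE2L6 and USP18 overlapped. IFI35 and IFI44L overlapped between siRNAs over all libraries but not within either treatment. The luminal markers HOXB13 and FOLH1 also had no overlap between siRNAs, and how many of all genes separate in this way was not counted.

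Per kilobase of the canonical transcript, the NS-Veh levels spread widely. IFI6 at 271 and ISG15 at 240 CPM per kilobase overlapped in their ranges (230.1 to 313 and 204 to 267). IFI44 at 24.7, HERC6 at 16.3, IFI27 at 16.1, USP18 at 14.3 and IFI35 at 13.7 CPM per kilobase followed, and each neighbour in this order overlapped the next. UBE2L6 at 4.71 and UBA7 at 3.42 CPM per kilobase were lower, with ranges that overlapped. IFI44L at 0.763 CPM per kilobase (0.338 to 1.24) was the lowest and overlapped neither of them. With SLIRP siRNA and vehicle the order was ISG15 at 45.1, IFI6 at 17.4, USP18 at 11.3, IFI35 at 5.78, IFI44 at 4.88, UBE2L6 at 4.82 and HERC6 at 2.68 CPM per kilobase, so by its mean USP18 stood directly after ISG15 and IFI6. The range of USP18 (8.39 to 12.9) overlapped those of IFI6 (10.7 to 28.9) and IFI35 (0 to 9.42).

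**Figure D3:**
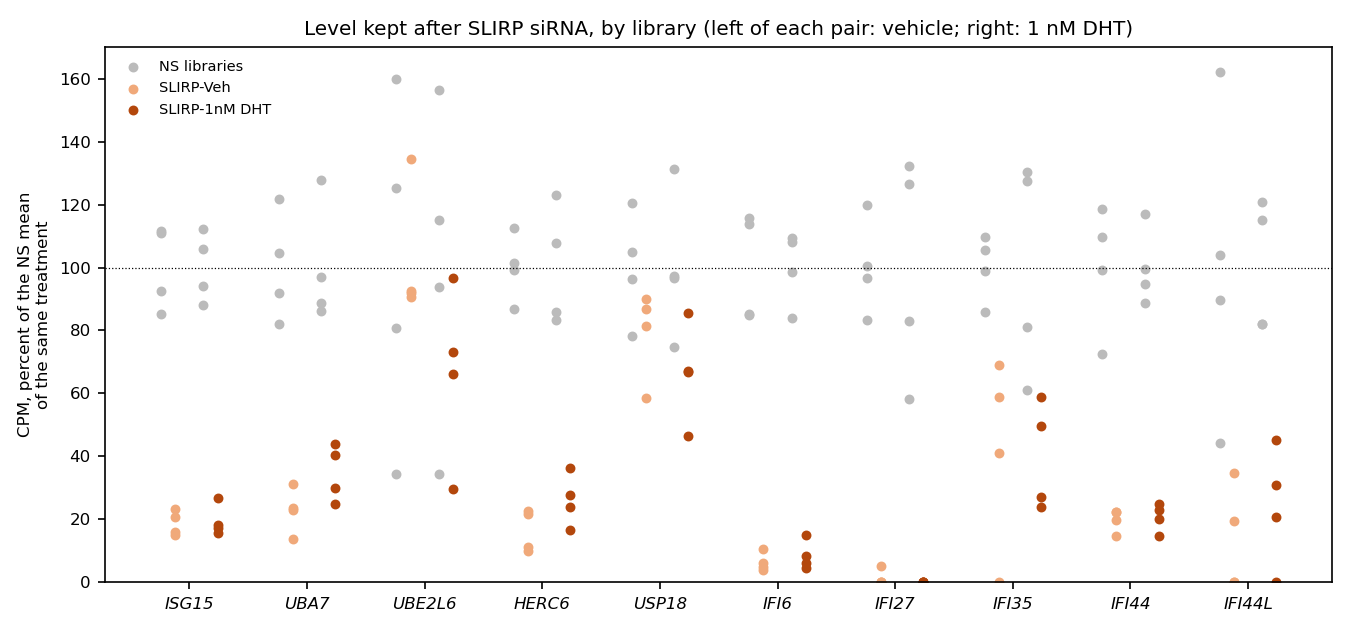
CPM in each library as a percent of the NS mean of the same treatment (vertical axis, from 0), with vehicle on the left and 1 nM DHT on the right for each gene and the NS libraries in grey. The SLIRP siRNA libraries of IFI6 stayed under 16% and those of USP18 and UBE2L6 reached into the range of the NS libraries.

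Counts of calls at an FDR of 0.01 (edgeR quasi-likelihood test, Benjamini-Hochberg adjustment over all genes tested) are given for scale, since the genes were chosen from this contrast. Over 16 libraries 6 of the 10 genes passed the filter on low counts and 6 were called lower, beside 17.4% of 10167 genes called lower and 17.8% called higher. In vehicle 8 passed the filter and 6 were called lower, USP18 and IFI35 not, beside 9.95% of 10684 genes. In DHT 8 passed and 7 were called lower, USP18 not, beside 11.6% of 10684 genes. Genes can pass this filter through the NS groups alone, in which these genes are higher. With fit and filter confined to the groups compared, 6 of the 10 were tested in each treatment. Of these, 4 were called lower in vehicle, beside 1090 of 9938 genes, and 5 in DHT, beside 1149 of 10179. That filter still includes an NS group. The vehicle and DHT comparisons contrast different libraries but share a model and its estimate of spread. Both belong to the contrast from which the genes were chosen, so their likeness is no independent support. Their log2 fold changes were -2.35 (SE 0.158) and -2.32 (SE 0.160) for ISG15, -3.81 (SE 0.202) and -3.66 (SE 0.202) for IFI6, -2.51 (SE 0.230) and -2.02 (SE 0.233) for HERC6, and -2.02 (SE 0.411) and -1.56 (SE 0.410) for UBA7. For IFI44 they were -2.38 (SE 0.241) and -2.30 (SE 0.241), for IFI35 -1.02 (SE 0.378) and -1.28 (SE 0.375), and for USP18 -0.43 (SE 0.229) and -0.58 (SE 0.228).

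The next question, which did not enter the choice of genes, was whether androgen itself moves them. With nonsense siRNA, 0 of the 8 genes tested were called after 1 nM DHT, beside 1.31% of 10367 genes, and 1 had an unadjusted p under 0.05. DESeq2 called 0 of the 4 to which it gave an adjusted p, and 91 of all genes, with 0 of the 8 at an unadjusted p under 0.05. On the normalized table limma called 0 of the 10 genes, 1 of which had an unadjusted p under 0.05, but it called only 0 and 4 of 13147 genes with pseudocounts 1 and 0.1, so its count says nothing of the 10 genes. The one in edgeR was HERC6, with a log2 fold change of -0.38 (95% interval -0.68 to -0.071, adjusted p = 0.232 from edgeR), whose DHT libraries at 39.2 to 57.7 CPM overlapped those in vehicle at 53.5 to 69.4 CPM. For ISG15 the log2 fold change was -0.13 (95% interval -0.33 to 0.083, adjusted p = 0.667 from edgeR) and for IFI6 -0.10 (-0.31 to 0.10, adjusted p = 0.733 from edgeR). IFI27 had a wider interval, with -0.56 (-1.24 to 0.12, adjusted p = 0.500 from edgeR). In the same libraries the androgen target KLK3, which encodes prostate-specific antigen and was named here after its values were seen, rose by 2.68 on the log2 scale (SE 0.140, adjusted p = 8.21e-15 from edgeR).

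With SLIRP siRNA, 0 of 8 genes were called after DHT, beside 1.17% of 10684 genes, and 0 had an unadjusted p under 0.05. Some of the 8 passed the filter only through the NS groups, in which they are higher, and IFI27 had too few counts to be called. When the fit and its filter were confined to the groups compared, ISG15, HERC6, USP18 and IFI6 were tested, 0 of these 4 were called and 101 of 9751 genes were. DESeq2 gave an adjusted p to 2 of the 8 and called 0 (128 of all genes). In limma 0 of the 10 genes were called, with 1 and 0 at an unadjusted p under 0.05 for pseudocounts 1 and 0.1, but only 12 and 17 of 13147 genes were called at all. The log2 fold change was -0.087 for ISG15 (95% interval -0.50 to 0.33, adjusted p = 0.898 from edgeR), 0.059 for IFI6 (-0.59 to 0.70, adjusted p = 0.962) and 0.12 for HERC6 (-0.50 to 0.74, adjusted p = 0.909). These intervals are wider than with nonsense siRNA, and fewer counts lay behind them. For IFI27 no fold is given, since both groups were at or under the floor. UBE2L6, which did not pass the filter, was at 5.27, 7.71, 5.32 and 5.20 CPM in SLIRP-Veh and at 1.31, 4.25, 2.91 and 3.22 CPM in SLIRP-1nM DHT, without overlap. These values rest on 4 to 9 and 1 to 4 counts in a library. Without the filter the log2 fold change of UBE2L6 was -0.94, and 0 of the 10 genes had an unadjusted p under 0.05 in edgeR. How many of all genes separate in this way was not counted.

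The difference in DHT response between the siRNAs was called for 0 of 8 genes, beside 0% of 10684 genes in edgeR, so the count says nothing particular of them, and for IFI27 no response with SLIRP siRNA could be measured. Of all genes 388 had an unadjusted p under 0.05, and of these 8 genes 0. Over all genes, DESeq2 called 0, limma 1 and 2 with pseudocounts 1 and 0.1, and edgeR without the filter on low counts 11. The difference was 0.030 on the log2 scale for ISG15 (95% interval -0.45 to 0.51), 0.15 for IFI6 (-0.54 to 0.85) and 0.49 for HERC6 (-0.22 to 1.20). Differences inside these intervals are not excluded.

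**Figure D4:**
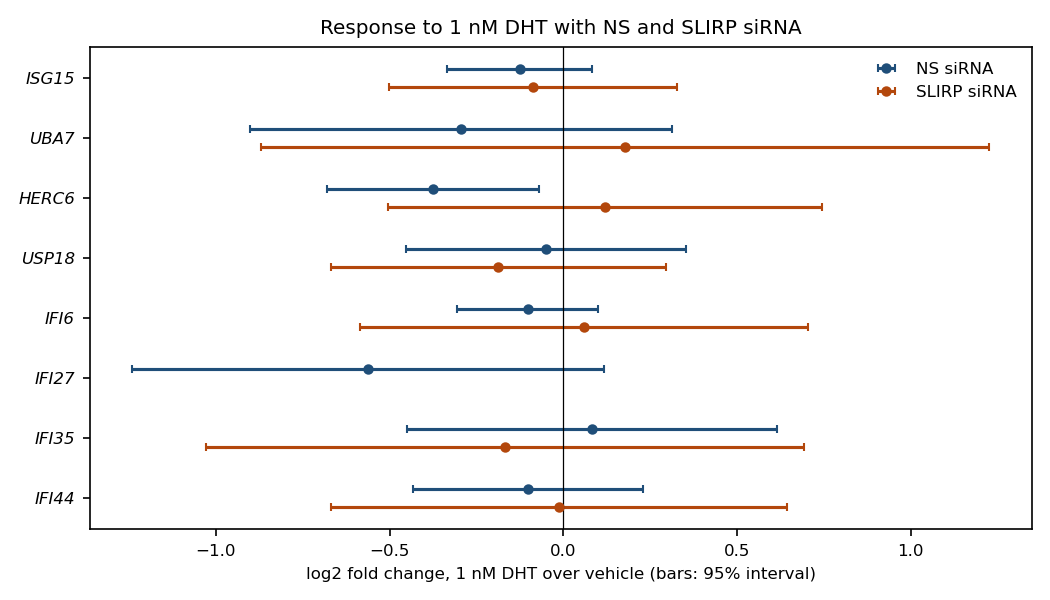
Log2 fold change of 1 nM DHT over vehicle (horizontal axis, with 95% intervals) for the 8 genes that passed the filter, with nonsense siRNA in blue and SLIRP siRNA in orange. All intervals but that of HERC6 with nonsense siRNA include 0, and IFI27 has no value with SLIRP siRNA.

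The values of the remaining ISG15 pathway genes after SLIRP siRNA follow, and differences between these genes were not tested. HERC5, the ligase, was at 17.7, 20.8, 22.3 and 12.8 CPM in NS-Veh and at 33.0, 20.5, 24.9 and 15.2 CPM in NS-1nM DHT. It was at 5.27, 1.54, 1.33 and 0.867 CPM in SLIRP-Veh and at 0, 1.42, 2.91 and 0.804 CPM in SLIRP-1nM DHT, with a log2 fold change over 16 libraries of -3.25 (SE 0.330). Of the 5 pathway genes tested over 16 libraries, 1 was called lower (HERC5) and 1 higher, beside 17.4% and 17.8% of all genes. Shares of this size are close to those over all genes. The higher one was STAT2, the ISGF3 subunit to which USP18 binds at the receptor, at 0.37 (SE 0.102). STAT2 was not called in vehicle (0.38, SE 0.150) or in DHT (0.38, SE 0.143), and its libraries overlapped between siRNAs. TRIM25 at -0.083 (SE 0.0719) and ARIH1 at 0.11 (SE 0.0830), ligases that also act on other targets, and the receptor chain IFNAR2 at 0.096 (SE 0.202) were not called.

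Paralogs outside the interferon response were examined as well. UBA1, the activating enzyme of ubiquitin, had a log2 fold change over 16 libraries of -0.21 (SE 0.0618), UBE2L3, the ubiquitin counterpart of UBE2L6, 0.22 (SE 0.0857) and HERC3 -0.74 (SE 0.212). IFI27L1 and IFI27L2 were at a mean of 3.71 and 1.41 CPM over the 16 libraries and passed no filter. HERC3 was the one gene of this list called after DHT, with an increase of 0.97 on the log2 scale with nonsense siRNA (SE 0.155, adjusted p = 0.000166 from edgeR) and of 1.02 with SLIRP siRNA (SE 0.182, adjusted p = 0.000547 from edgeR), unlike HERC6, for which the difference from HERC3 was not tested. Of the 10 genes on this list 7 passed the filter, 2 were called lower and 1 higher over 16 libraries, beside 17.4% and 17.8% of all genes, with a median of -0.077. A share of this size is close to that over all genes.

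Of 44 other interferon-stimulated genes listed, 28 passed the filter over 16 libraries. Of these, 21 were called lower and 0 higher (24 at an unadjusted p under 0.05), beside 17.4% and 17.8% of all genes, with a median log2 fold change of -0.999 beside -0.015 over all genes tested and -2.30 over the 6 of the 10 genes that passed. The list was written with results of these data known, so this is a description. Among the most abundant were DTX3L at -0.39 (SE 0.0958) and ZNFX1 at -0.042 (SE 0.0853). After DHT 0 of 33 were called with nonsense siRNA and 0 of 33 with SLIRP siRNA, with 5 and 4 at an unadjusted p under 0.05, beside 1.31% and 1.17% of all genes called. With SLIRP siRNA 4 of the 33 had 3 counts or fewer in at least 1 of the groups, so a call on them was hardly possible.

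**Figure D5:**
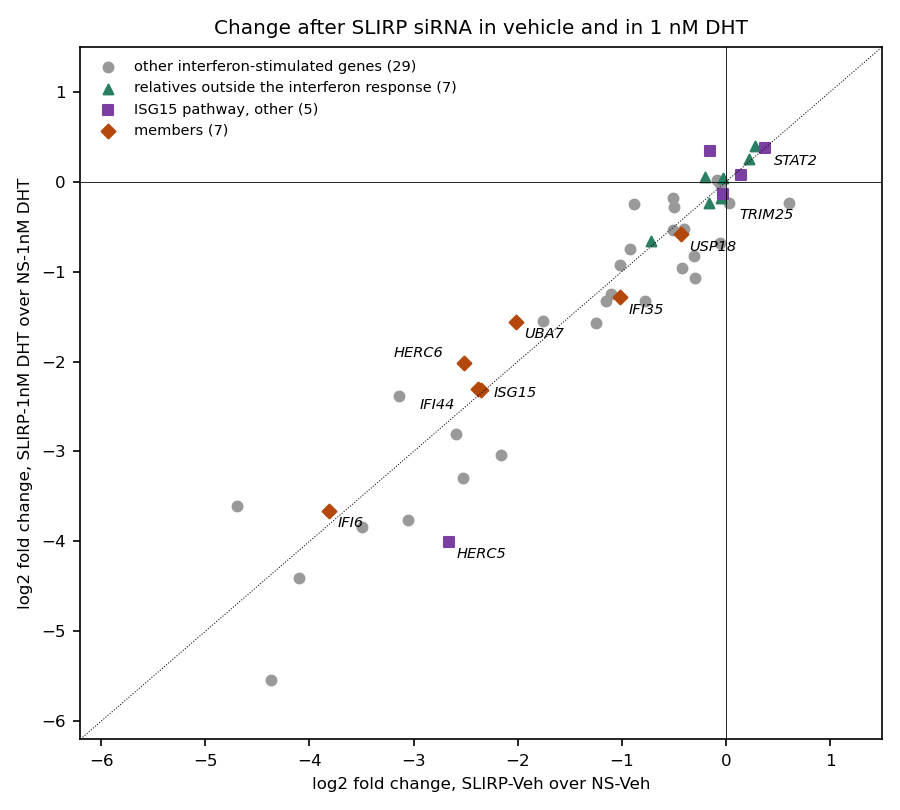
Log2 fold change of SLIRP siRNA over nonsense siRNA in vehicle (horizontal axis) and in 1 nM DHT (vertical axis) for genes tested in both and with more than 3 counts in each SLIRP siRNA group, with 1 point for each gene and the dotted line marking equal values. The 7 of the 10 genes drawn (diamonds) run from USP18 near 0 to IFI6, and of the pathway genes (squares) HERC5 stands alone among the low values.

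On the side of the signal, 6 of the 12 interferon ligands, receptor chains and kinases looked at had 0 counts in every library, and 3 had a mean over 1 CPM. IFNB1, a type I interferon, had 1 count in the 16 libraries, in NS-1nM DHT. JAK1 had 14 counts over the vehicle libraries and 24 over the DHT libraries with nonsense siRNA, and 25 and 20 with SLIRP siRNA. Its level was 3.54 ± 0.820 and 5.13 ± 2.36 CPM with nonsense siRNA and 6.80 ± 3.20 and 5.29 ± 2.07 CPM with SLIRP siRNA (vehicle and DHT, SD, n = 4 each).

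The profile of IFI6 over the 16 libraries (log2 CPM, centred) was closest to those of IFIT1 and IFIT3, with root mean square differences of 0.441 and 0.548, among 6958 genes (mean count 30 or more), whose median was 1.90. C14orf156, the siRNA's own target, at 0.638, DDX60 at 0.651 and SUB1 at 0.667 came next. Among the 10 genes, IFI27 at 0.740, ISG15 at 0.791, HERC6 at 0.841 and IFI44 at 0.872 had the smallest differences from IFI6, and USP18 at 1.701 and UBE2L6 at 1.91 had the largest. IFI27, IFI44 and USP18 are among those below a mean count of 30, and with 0 counts in 7 of 8 SLIRP siRNA libraries the difference of IFI27 depends on the prior count of 2. These distances include the difference between siRNAs, from which IFI6 was chosen, so they are no separate evidence of shared regulation. The log2 fold change of SLIRP siRNA over 16 libraries was -3.74 for IFI6, -4.29 for IFIT1, -3.41 for IFIT3 and -3.89 for C14orf156.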

How the data were processed

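RNA of 16 LNCaP libraries was sequenced by the authors as single 50-base reads, and the submitters' processing notes name CASAVA, RSEM and hg19. The authors deposited estimated counts (expected counts, rounded here to whole numbers) for 20531 entries, 29 of them without a symbol, and a normalized table, a score made by dividing by the upper quartile, used here only in alternatives. Groups and replicate numbers came from the labels. R 4.3.3 with edgeR 4.0.16 (TMM, filterByExpr, glmQLFit, glmQLFTest, Benjamini-Hochberg adjustment, FDR 0.01) was run on the counts. SLIRP siRNA was compared with NS over 16 libraries and DHT with vehicle over the 8 NS libraries. The other comparisons were contrasts of a 4-group model over 16 libraries. CPM used TMM-scaled library sizes, and 95% intervals of fold changes are normal ones from the SE.

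The 10 genes and all lists were chosen with earlier results of these data known. Named are the 10 genes, the other ISG15 pathway genes, their paralogs, the 3 most abundant other interferon-stimulated genes (1 of which is not reported here), JAK1, IFNB1, the siRNA target and the 5 genes whose log2 CPM (prior count 2) is nearest to IFI6. Replicates of a group differed by more than sampling noise (chi-square per degree of freedom 1.21 to 2.37). A floor is 3 counts, and floors and count intervals cover counting error only. Libraries held 436353 to 1689708 counts. Alternatives were DESeq2 1.42.0, limma 3.58.1 on log2 of the normalized table (pseudocounts 1 and 0.1), upper-quartile and RLE scaling, other filters, an FDR of 0.05, a replicate block, other models, and fewer libraries. Positions are from GENCODE lifted to hg19, and promoters from RefSeq.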

Additional observations from a re-analysis of the deposited data

Results flagged for a closer look

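UBE2L6 at 7.71 CPM in replicate 2 of SLIRP-Veh (5 counts) stood apart from the other replicates of its group, which were at 5.20 to 5.32 CPM. IFI27 at 0.586 CPM in replicate 1 of SLIRP-Veh was a single count beside 0 in the other replicates. Each gap passed Dixon's 95% critical value for 4 samples. Chance flags about 1 in 20 groups, and 39 groups were examined.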

How the results depend on the processing

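The direction of the siRNA differences held in every alternative run for each gene that passed the filter. Requiring at least 10 counts in every library left 1 gene called lower (ISG15) over 16 libraries, in vehicle and in DHT, because only ISG15 then remained to be tested, and with only replicates 1 and 2 the count in DHT was 4. Same-numbered libraries did not deviate together in every pair (lowest correlation 0.00015), so the replicate block is an alternative only. Over all pairs of groups, 16 of 32 comparisons of a library with the 4 of another group were highest for its own number, where 1 in 4 would be if the numbers were unrelated, a hint from the data and not from the design. The block left 5, 6 and 7 of the 10 genes called lower over 16 libraries, in vehicle and in DHT, and 0 after DHT, and moved the calls over all genes after DHT with nonsense siRNA from 136 to 270. Over all alternatives that count ran from 0 in limma to 272 at an FDR of 0.05, and the 125 with SLIRP siRNA from 12 in limma to 309. The siRNA calls over all genes dropped to 2057 of 3581 over 16 libraries and 1297 of 2319 in vehicle with only replicates 1 and 2, and to 1369 of 2607 in DHT in limma. No DHT response of the 10 genes was called under any alternative, but the signs of the small log2 fold changes turned in several, and the cause was not tested. With nonsense siRNA, USP18 was at 0.40, IFI6 at 0.013 and IFI44 at 0.081 with only replicates 1 and 2, and USP18 at 0.054 in limma. Leaving out libraries gave -0.21 to 0.19 for USP18, -0.083 to 0.27 for IFI35 and -0.20 to 0.00082 for IFI6. With SLIRP siRNA, IFI44 was at 0.00058 with RLE, 0.00077 with DESeq2, 0.035 with the block and 0.13 with only replicates 1 and 2, ISG15 at 0.20 with only replicates 3 and 4, and IFI35 at 1.21 and 2.04 in limma with pseudocounts 1 and 0.1. Leaving out libraries gave -0.43 to 0.17 for ISG15, -0.42 to 0.22 for IFI35, -0.14 to 0.20 for IFI44, -0.31 to 0.62 for IFI6, -0.14 to 0.45 for HERC6 and -0.037 to 0.44 for UBA7. For the difference in response, ISG15 was at -0.42 with only replicates 1 and 2 and -0.040 in limma, USP18 at 0.29 with only replicates 3 and 4, IFI35 at 1.12 and 1.94 and IFI44 at -0.030 and -0.031 in limma. Leaving out libraries gave -0.28 to 0.31 for ISG15, -0.31 to 0.063 for USP18, -0.50 to 0.13 for IFI35, -0.20 to 0.73 for IFI6 and -0.12 to 0.27 for IFI44. Depth limits UBE2L6, IFI44L, UBA7 and IFI27 most.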
